A study of Mus musculus with 13 samples.

Results

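The hepatic RNA of 10 genes of bile acid synthesis, bile acid transport and the bile acid receptor FXR was followed in 13 male C57BL/6 mice on a western-type fatty diet for 5 months. The genes were Cyp7a1, Cyp8b1, Cyp27a1, Cyp7b1, Hsd3b7, Baat, Nr1h4, Nr0b2, Abcb11 and Slc10a1. They were taken by gene name, with older synonyms, and all 10 were found, on 12 of the 41174 probes of the array and among 27670 distinct gene names. All 12 probes were well above background on all 13 arrays and saturated on 0, so no filter on low values removed a member. The 3 TEKI mice carried a SIRT1 knock-in allele with a glutamate at T522, which brings a negative charge, the 5 TAKI mice a knock-in allele with an alanine, which cannot be phosphorylated, and the 5 WT mice the unchanged Sirt1 gene. SIRT1 is an NAD-dependent deacetylase, and the study's title places the phosphorylation of T522 in energy metabolism. Whether the alleles were on 1 or both chromosomes, the age of the mice and the hour at which livers were taken are not given in the sources used here. All mice had the diet, so no value stands for a chow-fed liver, and the comparisons cover genotype only.

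Bile acids are made from cholesterol in hepatocytes by a classic route, which begins with CYP7A1, and by an alternative route through CYP27A1 and CYP7B1. CYP8B1 turns intermediates towards cholic acid, HSD3B7 modifies the sterol ring, and BAAT joins the acids to taurine or glycine. ABCB11 exports the conjugated acids into bile and SLC10A1 takes them back up from blood. Bile acids activate FXR, encoded by Nr1h4, which induces Nr0b2 (SHP) and Abcb11, and SHP together with the gut hormone FGF15 represses Cyp7a1.

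Probe sequences of 3 members, the first enzyme of the classic route, the repressor and the uptake transporter, are shown to make plain which stretch of RNA these probes read. For Cyp7a1 the sequence is that of its second probe. The probe used in the comparisons and correlations of Cyp7a1, A_52_P84027, is not shown. The Cyp7a1 probe A_51_P290981 maps to chr4:6195632-6196238 on the minus strand of build mm7 per the array annotation in the files, so its 60 bases are spread over 607 bases of genome. The Nr0b2 probe A_51_P265338 maps to chr4:132932212-132932271 on the plus strand and the Slc10a1 probe A_52_P69109 to chr12:78923269-78923328 on the minus strand of the same build. Each is printed 5′ to 3′, in lower case because the whole oligo is read.
Cyp7a1 A_51_P290981: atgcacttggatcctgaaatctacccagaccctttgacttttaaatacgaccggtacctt
Nr0b2 A_51_P265338: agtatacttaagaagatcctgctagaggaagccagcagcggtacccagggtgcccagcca
Slc10a1 A_52_P69109: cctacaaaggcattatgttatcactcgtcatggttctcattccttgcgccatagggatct

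Promoter sequence from RefSeq (GRCm38.p6) was at hand for 7 of the 10 members, and that of Nr1h4 and Cyp27a1 is shown because these genes moved together across the mice, as described further on. The windows are the 250 bases before the start that the RefSeq promoter table gives, which lie at chr10:89506659-89506908 on the minus strand for Nr1h4 and at chr1:74713285-74713534 on the plus strand for Cyp27a1. Both windows lie inside the span of the gene, chr10:89454234-89533645 for Nr1h4 and chr1:74713148-74737897 for Cyp27a1, so these starts are not the outermost ones annotated. Capitals mark the letters AGGTCA or its complement TGACCT, the half-site bound by many nuclear receptors, searched on both strands.
Nr1h4: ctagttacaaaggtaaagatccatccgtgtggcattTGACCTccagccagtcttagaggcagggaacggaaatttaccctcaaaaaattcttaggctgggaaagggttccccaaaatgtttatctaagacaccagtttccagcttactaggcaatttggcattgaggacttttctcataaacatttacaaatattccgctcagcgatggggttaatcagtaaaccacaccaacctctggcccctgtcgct
Cyp27a1: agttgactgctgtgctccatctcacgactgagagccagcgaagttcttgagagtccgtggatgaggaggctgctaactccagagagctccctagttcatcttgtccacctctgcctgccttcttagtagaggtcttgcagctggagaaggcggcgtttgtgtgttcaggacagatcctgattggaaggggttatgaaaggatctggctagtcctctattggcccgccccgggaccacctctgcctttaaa
The Nr1h4 window held 1 match and the Cyp27a1 window 0. Over all 32851 promoters of the same length, 14% held the motif on either strand, and no match says only that these letters are not in this window.

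Each mouse was measured on 1 Agilent 1-colour array, and levels are log2 intensities after subtraction of each array's own 75th percentile, so 1 unit is a doubling of signal, and levels of different probes cannot be set against each other. The 13 arrays lay on 5 slides. Slides 4 and 5 held TAKI arrays alone, which means that for TAKI the effects of slide and of genotype cannot be told apart, while the 3 TEKI arrays shared slide 3 with WT mouse 5. The array of TEKI mouse 1 stood apart, with 86.8% of spots well above background and 87 non-uniform spots, against 60.5% to 73.1% and 1 to 6 on the others. A substitution in the protein need not alter the level of its RNA, so Sirt1 is no check of the genotype labels. Sirt1 RNA differed by -0.01 ± 0.13 (SE, adjusted p = 0.984) for TAKI minus WT and by -0.09 ± 0.15 (SE, adjusted p = 0.877) for TEKI minus WT in limma. Precision is limited by the number of arrays, most of all for TEKI, and p-values measure the spread between these mice. In whole liver, fewer cells of a type and less RNA per cell cannot be told apart.

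No member differed between the genotypes past the threshold. In the limma model of all 13 arrays, with Benjamini-Hochberg adjustment over 20408 genes, 0 of the 10 members had an adjusted p under 0.05 for TAKI minus WT, where 2.82% of all genes did, 0 for TEKI minus WT, where 0.0049% did, and 0 for TEKI minus TAKI, where 3.44% did. At an unadjusted p under 0.05 the members also numbered 0 in each comparison, against 14.7%, 11.6% and 12.1% of all genes, and under the alternatives fitted for each comparison the count of adjusted calls was also 0. Slide as a fixed block could be fitted for TEKI minus WT only. The exact permutation test of each member put 1 below 0.05, Cyp8b1 for TEKI minus WT, with no adjustment over genes. The 10 differences had a median of -0.01 for TAKI minus WT, with 5 members higher, where all genes had a median of 0.00. For TEKI minus WT the median was 0.13, with 9 members higher, where all genes had a median of 0.07 and 62.5% of them were higher. Without TEKI mouse 3 the members' median for TEKI minus WT was -0.02, and against WT mouse 5 alone, on slide 3, it was -0.25. For TEKI minus TAKI it was 0.14, with 8 members higher, beside a median of 0.06 and 60.6% of all genes. Of the members, 1 had groups that did not overlap for TEKI against WT, where 3.93% of all genes did, and 0 for TAKI against WT and TEKI against TAKI, where 7.5% and 8.3% of all genes did. The comparisons with WT share the WT mice.

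**Figure D1:**
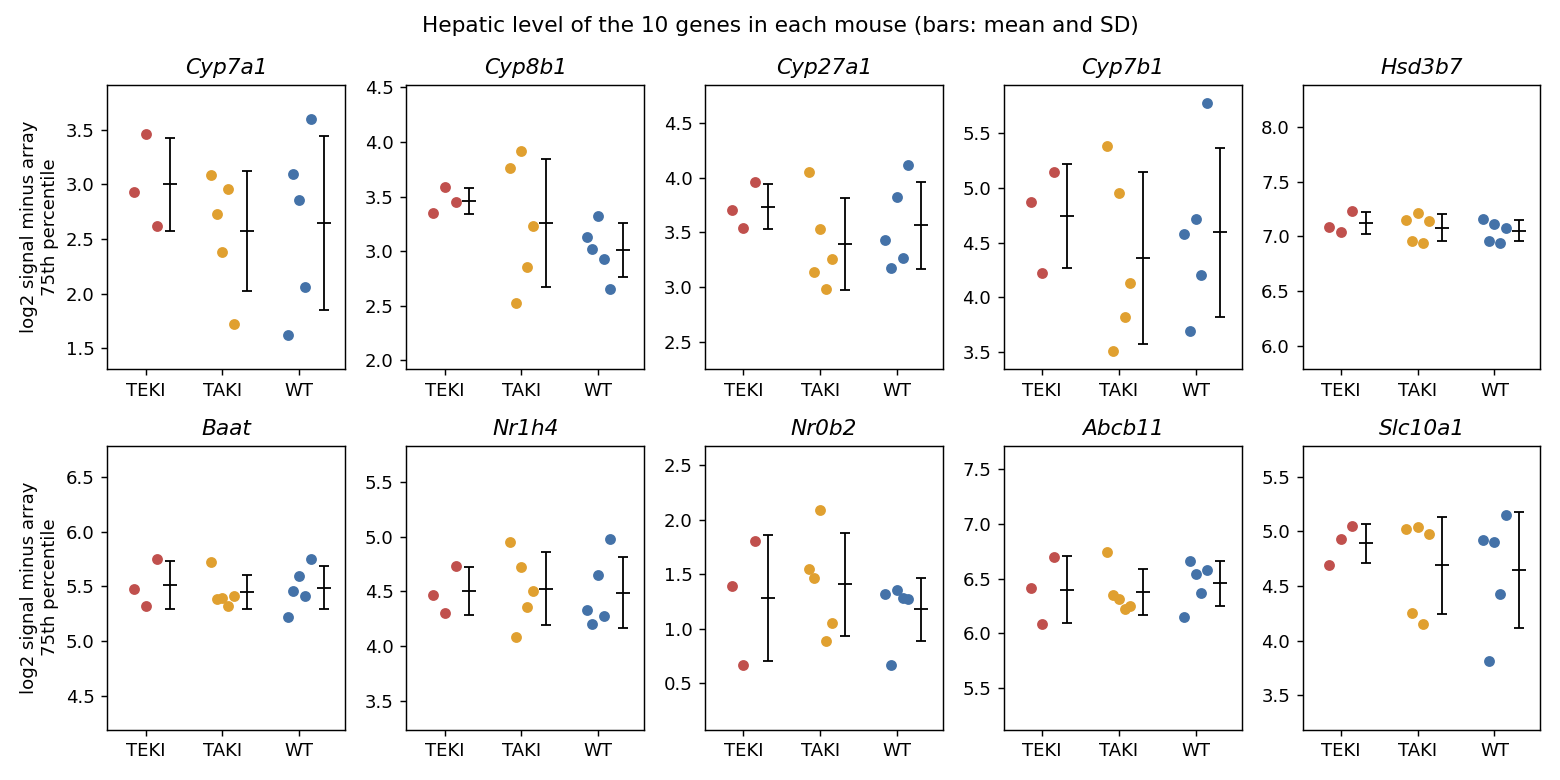
Each point is 1 mouse, with TEKI at the left, TAKI in the middle and WT at the right of each panel, and the vertical axis gives the log2 signal minus the 75th percentile of the array over a span of equal size in every panel. Bars give the mean and SD. The 3 TEKI values of Cyp8b1 lie above all 5 WT values, Cyp7a1 and Cyp7b1 spread widely within each genotype, and Hsd3b7 hardly varies.

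Cyp7a1, the rate-limiting enzyme of the classic route, varied more between mice of 1 genotype than between genotypes. Its tested probe was at 2.93, 3.46 and 2.62 in TEKI mice 1 to 3, at 3.09, 2.72, 2.38, 2.96 and 1.72 in TAKI mice 1 to 5, and at 1.62, 3.10, 2.86, 2.06 and 3.60 in WT mice 1 to 5. The lowest WT mouse lay below all others and the highest WT mouse above all others, so the 3 groups overlapped. The means were 3.00 ± 0.43 in TEKI (SD, n = 3), 2.57 ± 0.55 in TAKI (SD, n = 5) and 2.65 ± 0.80 in WT (SD, n = 5). The difference was 0.36 ± 0.44 (SE) for TEKI minus WT, with a 95% interval of -0.60 to 1.31 and adjusted p = 0.81 in limma, and -0.07 ± 0.38 (SE) for TAKI minus WT, with an interval of -0.90 to 0.75. The highest mouse had 3.94 times the signal of the lowest. The SD within genotypes, 0.64, lay at the 97.7 percentile among genes nearest in level.

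The second Cyp7a1 probe, whose sequence is given above, was at 0.44, 0.25 and 0.40 in TEKI mice 1 to 3, at 0.20, -0.49, -0.31, 0.35 and -0.44 in TAKI mice 1 to 5, and at -0.68, 0.31, -0.06, -0.45 and 0.98 in WT mice 1 to 5. Its 3 TEKI values lay close together, within the range of WT, and 4 of the 5 TAKI values lay below them. TEKI minus TAKI was 0.50 ± 0.33 (SE), with an interval of -0.22 to 1.23 and an exact permutation p of 0.0536, two-sided, over 56 regroupings. The tested probe gave 0.43 ± 0.44 (SE) for the same comparison, with an exact permutation p of 0.339. With genotype means removed the probes correlated at r = 0.82 over the 13 arrays.

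Cyp8b1, which steers synthesis to cholic acid, was the 1 member whose TEKI and WT values did not overlap. It was at 3.35, 3.59 and 3.45 in TEKI mice 1 to 3, at 3.76, 2.53, 3.91, 2.85 and 3.23 in TAKI mice 1 to 5, and at 3.13, 3.02, 3.32, 2.93 and 2.65 in WT mice 1 to 5. All 3 TEKI mice exceeded all 5 WT mice, while the TAKI mice ranged from below the lowest WT value to above the highest TEKI value. The means were 3.46 ± 0.12 in TEKI (SD, n = 3), 3.26 ± 0.59 in TAKI (SD, n = 5) and 3.01 ± 0.25 in WT (SD, n = 5). TEKI minus WT was 0.45 ± 0.28 (SE), a fold of 1.37, with a 95% interval of -0.16 to 1.07, adjusted p = 0.547 in limma and an exact permutation p of 0.0357, two-sided, where 0.0179 is the smallest that 3 against 5 mice allow. On slide 3 alone the 3 TEKI mice exceeded WT mouse 5 by 0.81. The difference was above 0 under all 29 alternatives, from 0.02 with arrays centred on their median to 0.81 with slide as a fixed block, and never past the threshold. Since the groups did not overlap, leaving out 1 mouse could not turn this sign, and some other settings keep the same difference. The 0.81 with slide as a fixed block rests on WT mouse 5 alone, the lowest WT mouse for Cyp8b1. TAKI minus WT was 0.25 ± 0.24 (SE), with an interval of -0.29 to 0.78 and adjusted p = 0.728.

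Cyp27a1, the mitochondrial enzyme that opens the alternative route, was at 3.71, 3.55 and 3.96 in TEKI mice 1 to 3, at 4.05, 3.14, 3.53, 2.98 and 3.26 in TAKI mice 1 to 5, and at 3.43, 3.18, 3.83, 3.27 and 4.12 in WT mice 1 to 5. TAKI mouse 1 and WT mouse 5 were the highest of their groups, TAKI mouse 4 was the lowest of all, and the groups overlapped. TEKI minus WT was 0.17 ± 0.26 (SE), with an interval of -0.40 to 0.75, and TAKI minus WT was -0.17 ± 0.23 (SE), with an interval of -0.67 to 0.33, with adjusted p = 0.856 for TEKI and 0.811 for TAKI in limma.

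Cyp7b1, the oxysterol hydroxylase of the same route, had the widest range of the 10 members in fold. It was at 4.87, 4.22 and 5.15 in TEKI mice 1 to 3, at 5.38, 3.51, 4.95, 3.82 and 4.13 in TAKI mice 1 to 5, and at 4.58, 3.69, 4.71, 4.20 and 5.78 in WT mice 1 to 5. TAKI mouse 1 and WT mouse 5 were again the highest of their groups, TAKI mouse 2 and WT mouse 2 were the lowest, and TEKI lay inside the range of both other genotypes. The highest mouse had 4.84 times the signal of the lowest, and the SD within genotypes, 0.73, stood at the 98.4 percentile of genes of like level. TEKI minus WT was 0.15 ± 0.50 (SE), with an interval of -0.93 to 1.23, and TAKI minus WT was -0.24 ± 0.43 (SE), with an interval of -1.17 to 0.70, with adjusted p = 0.944 for TEKI and 0.871 for TAKI in limma. Against WT mouse 5 on slide 3 the TEKI difference was -1.04 for Cyp7b1, -0.38 for Cyp27a1, -0.60 for Cyp7a1, -0.48 for Nr1h4 and -0.26 for Slc10a1, opposite in sign to the values over all arrays and with 1 WT mouse.

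Hsd3b7, the sterol dehydrogenase of both routes, varied least among the 10 members. It was at 7.08, 7.04 and 7.23 in TEKI mice 1 to 3, at 7.15, 6.95, 7.21, 6.94 and 7.14 in TAKI mice 1 to 5, and at 7.16, 6.96, 7.11, 6.94 and 7.08 in WT mice 1 to 5. All 13 mice lay within a 1.22-fold range, and the groups overlapped. Its SD within genotypes, 0.11, stood at the 5.36 percentile of genes of like level. For TEKI minus WT the difference was 0.07 ± 0.10 (SE), with an interval of -0.15 to 0.29, and TAKI minus WT was 0.03 ± 0.09 (SE), with an interval of -0.16 to 0.22, the narrowest intervals of the 10 members, with adjusted p = 0.845 for TEKI and 0.924 for TAKI in limma.

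Baat, which conjugates bile acids, was at 5.48, 5.32 and 5.75 in TEKI mice 1 to 3, at 5.72, 5.39, 5.39, 5.32 and 5.42 in TAKI mice 1 to 5, and at 5.22, 5.46, 5.60, 5.41 and 5.75 in WT mice 1 to 5. TEKI mouse 3, TAKI mouse 1 and WT mouse 5 were high and close to each other, and the groups overlapped. The SD within genotypes, 0.19, stood at the 58.4 percentile of genes of like level. TEKI minus WT came to 0.03 ± 0.14 (SE), with an interval of -0.29 to 0.34, and TAKI minus WT was -0.04 ± 0.12 (SE), with an interval of -0.31 to 0.23, with adjusted p = 0.969 for TEKI and 0.93 for TAKI in limma. The second Baat probe, A_52_P43150, was at 2.99, 1.74 and 3.31 in TEKI mice 1 to 3, at 3.22, 2.73, 2.90, 2.81 and 2.90 in TAKI mice 1 to 5, and at 2.79, 2.91, 2.83, 2.78 and 3.24 in WT mice 1 to 5. TEKI mouse 2 was low on it, below every other mouse, while on the first probe WT mouse 1 was lower. With genotype means removed the probes correlated at r = 0.72 over the 13 arrays.

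Nr1h4, which encodes FXR, the receptor that senses bile acids, was at 4.46, 4.30 and 4.74 in TEKI mice 1 to 3, at 4.95, 4.08, 4.72, 4.36 and 4.50 in TAKI mice 1 to 5, and at 4.33, 4.20, 4.65, 4.28 and 4.98 in WT mice 1 to 5. TAKI mouse 1 and WT mouse 5 were the highest, TAKI mouse 2 the lowest, and the groups overlapped. The means were 4.50 ± 0.22 in TEKI (SD, n = 3), 4.52 ± 0.33 in TAKI (SD, n = 5) and 4.49 ± 0.33 in WT (SD, n = 5). The TEKI minus WT difference was 0.01 ± 0.22 (SE), with an interval of -0.47 to 0.49, and TAKI minus WT was 0.04 ± 0.19 (SE), with an interval of -0.38 to 0.45, with adjusted p = 0.992 for TEKI and 0.961 for TAKI in limma.

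Nr0b2, the repressor SHP that FXR induces, was at 1.39, 0.66 and 1.80 in TEKI mice 1 to 3, at 1.55, 1.46, 2.09, 0.89 and 1.05 in TAKI mice 1 to 5, and at 1.32, 0.67, 1.35, 1.29 and 1.28 in WT mice 1 to 5. TAKI mouse 3 was the highest of all and TEKI mouse 2 and WT mouse 2 the lowest, and the groups overlapped. The means were 1.29 ± 0.58 in TEKI (SD, n = 3), 1.41 ± 0.47 in TAKI (SD, n = 5) and 1.18 ± 0.29 in WT (SD, n = 5). For TEKI minus WT the difference was 0.11 ± 0.30 (SE), with an interval of -0.55 to 0.76, and TAKI minus WT was 0.23 ± 0.26 (SE), with an interval of -0.34 to 0.79, with adjusted p = 0.935 for TEKI and 0.769 for TAKI in limma. Its SD within genotypes, 0.43, stood at the 93 percentile of genes of like level, and that of Nr1h4, 0.31, at the 88.8 percentile.

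Abcb11, the bile salt export pump and an FXR target, was at 6.41, 6.09 and 6.70 in TEKI mice 1 to 3, at 6.75, 6.35, 6.32, 6.22 and 6.25 in TAKI mice 1 to 5, and at 6.15, 6.66, 6.54, 6.37 and 6.58 in WT mice 1 to 5. TAKI mouse 1 and TEKI mouse 3 were the highest and TEKI mouse 2 the lowest, and the groups overlapped. TEKI minus WT came to -0.06 ± 0.17 (SE), with an interval of -0.43 to 0.31, and TAKI minus WT was -0.08 ± 0.15 (SE), with an interval of -0.40 to 0.24, with adjusted p = 0.934 for TEKI and 0.87 for TAKI in limma. Slc10a1, the uptake transporter NTCP, was at 4.69, 4.93 and 5.05 in TEKI mice 1 to 3, at 5.02, 4.26, 5.04, 4.15 and 4.98 in TAKI mice 1 to 5, and at 4.92, 3.82, 4.90, 4.43 and 5.15 in WT mice 1 to 5. WT mouse 2 was the lowest of all, followed by TAKI mice 4 and 2, and the 3 TEKI mice lay within the WT range. The TEKI minus WT difference was 0.25 ± 0.31 (SE), with an interval of -0.43 to 0.92, and TAKI minus WT was 0.04 ± 0.27 (SE), with an interval of -0.54 to 0.63, with adjusted p = 0.817 for TEKI and 0.965 for TAKI in limma.

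Between the knock-in genotypes, TEKI minus TAKI ranged from -0.12 for Nr0b2 to 0.43 for Cyp7a1. The smallest p among the 10 was that of Cyp27a1, at 0.34 ± 0.26 (SE) with an interval of -0.23 to 0.92 and adjusted p = 0.669 in limma. Cyp7a1, Cyp27a1 and Cyp7b1 kept a value above 0 in this comparison under all 29 alternatives, and the smallest adjusted p they reached in any was 0.387.

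**Figure D2:**
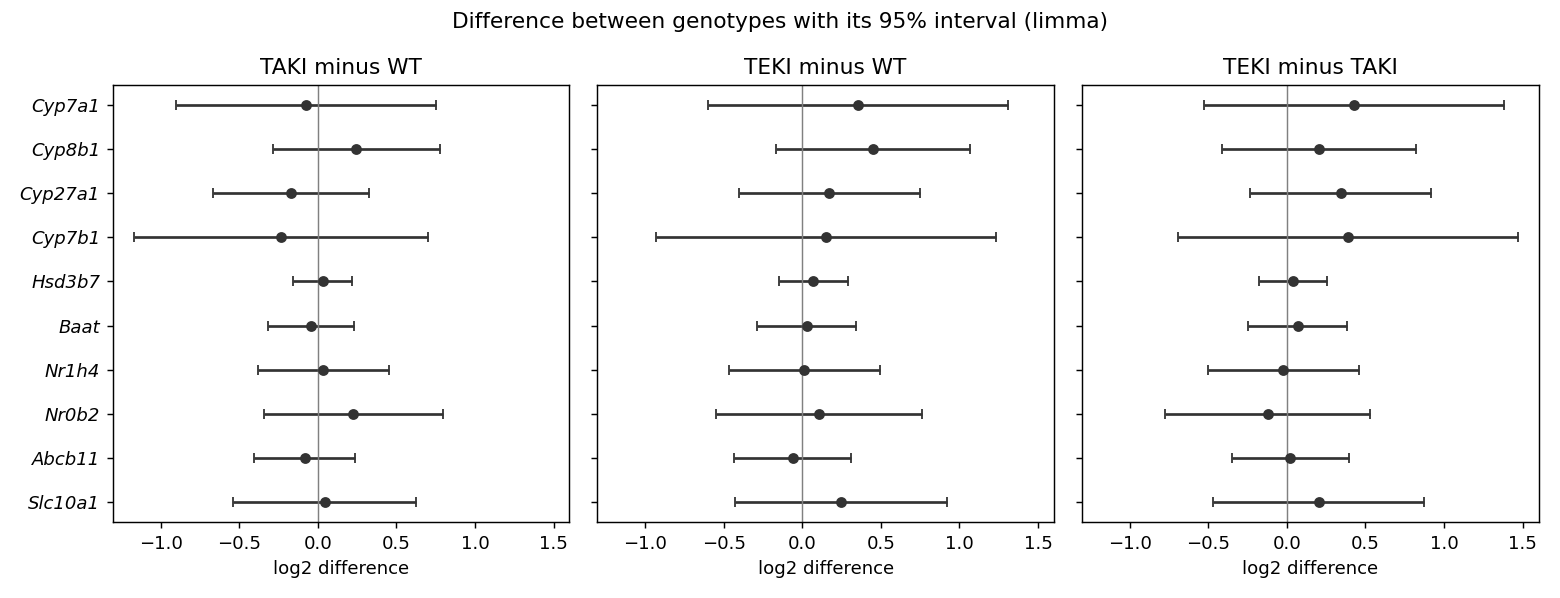
Points give the log2 difference of each member in the 3 comparisons and the bars its 95% interval from limma, with 0 as the vertical line. All 30 intervals include 0, and those of Hsd3b7 and Baat are the narrowest while those of Cyp7a1 and Cyp7b1 are the widest.

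Across the mice, some members rose and fell together. With genotype means removed, 10 of the 45 member pairs correlated past the threshold (permutation within genotype, Benjamini-Hochberg over the 45 pairs), all 10 in the positive direction, and 41 of the 45 coefficients were above 0. By Spearman's coefficient 12 pairs passed, 9 of them shared. The closest were the receptor gene and the alternative route: Cyp7b1 and Nr1h4 correlated at r = 0.96 (permutation p = 2e-05, adjusted p = 0.0009) and rho = 0.94 (permutation p = 2e-05, adjusted p = 0.0009). Cyp27a1 and Nr1h4 gave r = 0.94 (permutation p = 0.0002, adjusted p = 0.003) and rho = 0.90 (permutation p = 0.00048, adjusted p = 0.0072). Cyp27a1 and Cyp7b1 gave r = 0.93 (permutation p = 9e-05, adjusted p = 0.00202) and rho = 0.91 (permutation p = 8e-05, adjusted p = 0.0018). TAKI mouse 1 and WT mouse 5 were the mice farthest from the median on each of these genes, and without them the 3 coefficients were 0.91, 0.87 and 0.86. These 3 pairs passed in all 19 alternatives, each mouse left out in turn included. The count of 10 was 3 without TAKI mouse 1 or TEKI mouse 3, 4 without WT mouse 3, 5 without WT mouse 5 and 6 without WT mouse 4 or TAKI mouse 2. The points share the array and its scaling.

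Many genes beyond the members moved with the receptor and the alternative route. A coefficient as large in size as that of the weakest pair past the threshold, 0.76, was reached with Cyp7b1 by 11.0% of all genes, with Nr1h4 by 10.5%, with Cyp27a1 by 8.16% and with Slc10a1 by 4.29%, but with Cyp7a1 by 0.437% and with Cyp8b1 by 0.368%. The members past the threshold numbered 4 of the other 9 for Nr1h4, for Cyp27a1 and for Slc10a1, 3 for Cyp7b1 and for Baat, 1 for Hsd3b7 and for Abcb11 and 0 for Cyp7a1, Cyp8b1 and Nr0b2. The share of all genes was 4.54% for Baat, for Hsd3b7 3.08%, for Abcb11 1.48% and for Nr0b2 0.786%. Among all genes, Nr1h4 stood at the 99.96 percentile of coefficients with Cyp7b1, and Abcb11 at the 99.8 percentile with Baat.

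Baat and the export pump Abcb11 formed a further pair, at r = 0.89 (permutation p = 0.00191, adjusted p = 0.0173) and rho = 0.87 (permutation p = 0.00121, adjusted p = 0.0131). Its r was 0.89 without the 2 mice farthest on Baat and 0.79 without the 2 farthest on Abcb11. Unlike the 3 closest pairs, it did not pass in all 19 alternatives. The others past the threshold were Hsd3b7 with Slc10a1 (r = 0.83, adjusted p = 0.0297, by permutation), Baat with Cyp27a1 and Nr1h4 (r = 0.82 and 0.80), and Slc10a1 with Cyp7b1, Cyp27a1 and Nr1h4 (r = 0.81, 0.76 and 0.76), with adjusted permutation p-values of 0.0173 to 0.0468. Without the 2 mice farthest on the first-named gene, r fell to 0.75 for Hsd3b7 with Slc10a1 and to 0.59 for Baat with Nr1h4.

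**Figure D3:**
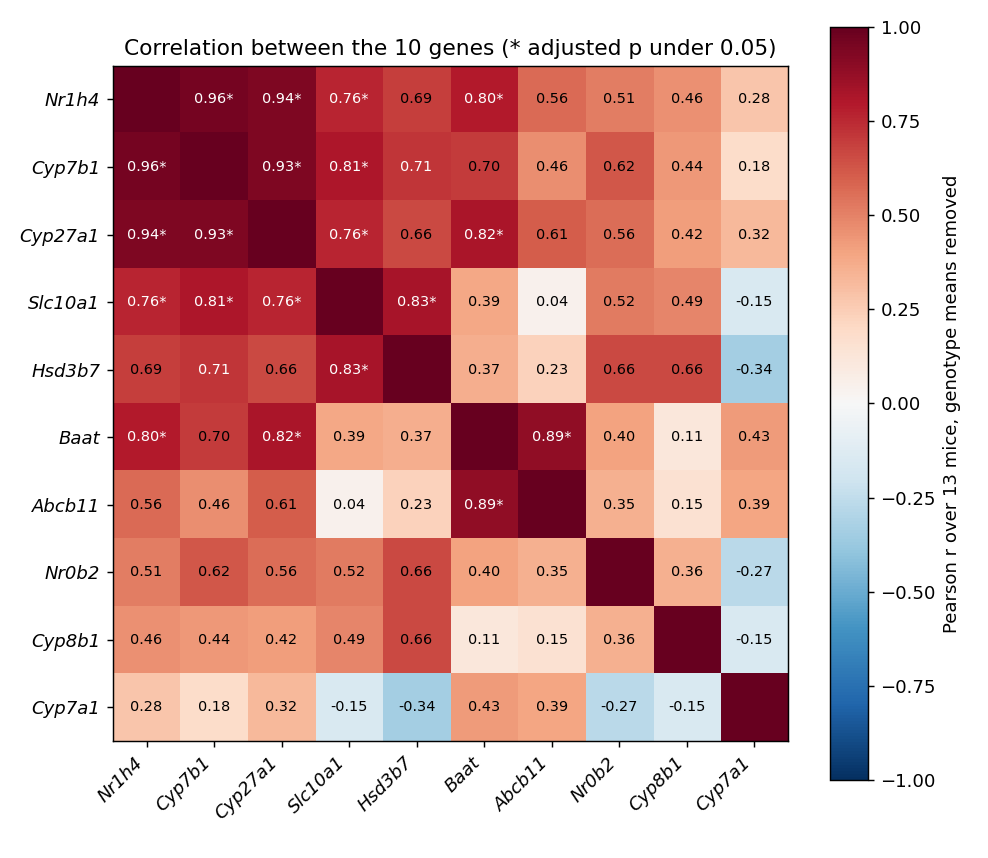
Colour and number give Pearson's r between members over 13 mice with genotype means removed, and a star marks an adjusted permutation p under 0.05. The starred block holds Nr1h4, Cyp7b1, Cyp27a1 and Slc10a1. Baat, Hsd3b7 and Abcb11 also carry stars, while the rows of Cyp7a1, Cyp8b1 and Nr0b2 have none.

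Cyp7a1, Cyp8b1 and Nr0b2 stood outside this group. Cyp7a1 correlated past the threshold with 0 of the other 9 members. With Nr0b2, its repressor, it gave r = -0.27 (permutation p = 0.357, adjusted p = 0.435) and rho = -0.40 (permutation p = 0.198, adjusted p = 0.319), and r = -0.51 without the 2 mice farthest on Cyp7a1 but -0.09 without the 2 farthest on Nr0b2. With Cyp8b1, another enzyme of the classic route, Cyp7a1 gave r = -0.15 (permutation p = 0.642, adjusted p = 0.705) and rho = 0.01 (permutation p = 0.979, adjusted p = 0.98). With arrays centred on their median, the coefficient of Cyp7a1 with Nr0b2 was -0.02, with Cyp8b1 0.17, with Baat 0.60 and with Abcb11 0.58. With Hsd3b7 it was -0.34 and turned to 0.32, and with Slc10a1 it was -0.15 and turned to 0.15, and 0 of these passed. Regressed on the array's 75th percentile, Cyp7a1 with Nr0b2 gave r = -0.70, and with slide means removed -0.50, and neither passed. Nr1h4 and its target Nr0b2 gave r = 0.51 (permutation p = 0.0927, adjusted p = 0.19) and rho = 0.55 (permutation p = 0.0707, adjusted p = 0.151), and Nr1h4 and Abcb11 r = 0.56 (permutation p = 0.0596, adjusted p = 0.128) and rho = 0.46 (permutation p = 0.148, adjusted p = 0.29). When regressed on the array's 75th percentile, Nr1h4 with Nr0b2 turned to r = -0.27 and Nr1h4 with Abcb11 fell to 0.27. With 13 mice, coefficients under 0.76 in size did not pass, so a p above the threshold does not show that these genes vary independently.

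**Figure D4:**
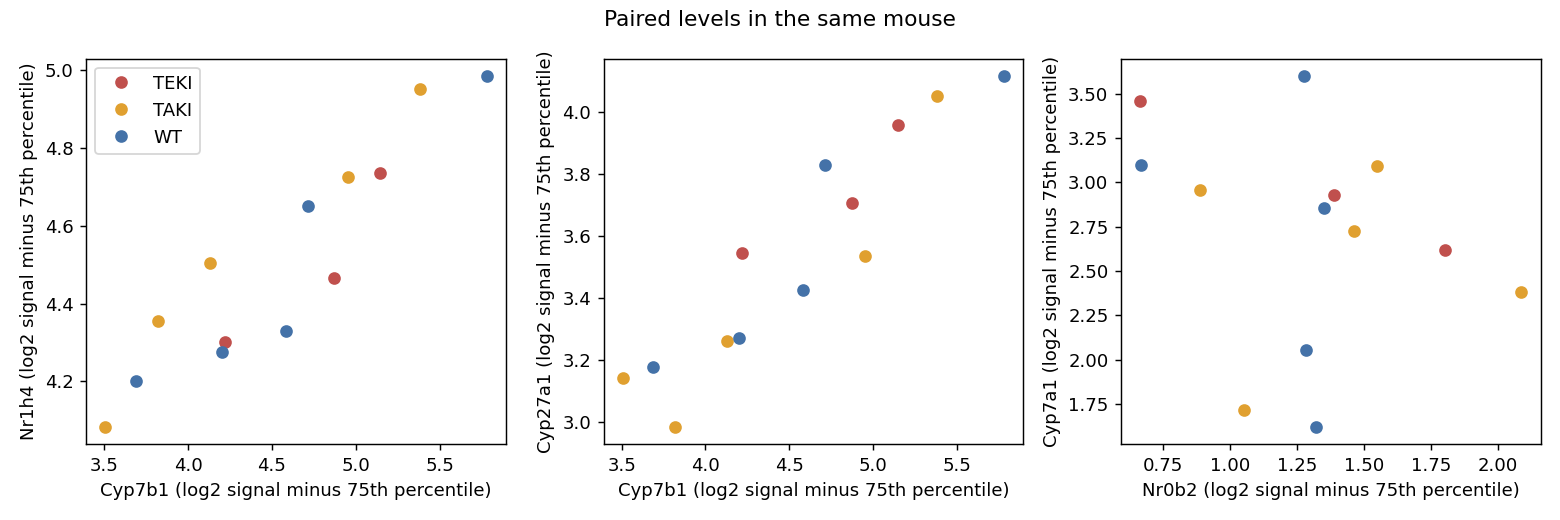
Each point is 1 mouse, coloured by genotype (TEKI, TAKI, WT), and the axes give log2 signal minus the 75th percentile of the array. Nr1h4 and Cyp27a1 climb with Cyp7b1 in mice of all 3 genotypes, and Cyp7a1 shows no such line against Nr0b2.

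The brightness of the array moved with these values. After removal of genotype means, the log2 75th percentile of the array correlated with the level of Cyp27a1 at r = -0.83, of Nr0b2 at -0.83, of Cyp7b1 at -0.78 and of Nr1h4 at -0.73, but of Cyp8b1 at -0.33 and of Cyp7a1 at -0.14. The median over the 10 members was -0.69, against -0.33 over the 5707 genes at or above the lowest member level and -0.06 over all genes. Levels are signal minus this same percentile, so the subtraction itself can give a negative coefficient, and its part was not tested. With the members regressed on that percentile, 4 pairs passed, Cyp7b1 with Nr1h4 at r = 0.91, Cyp27a1 with Nr1h4 at 0.86, Cyp27a1 with Cyp7b1 at 0.82 and Baat with Abcb11 at 0.84. The same 4 passed with slide means removed, at r = 0.96, 0.98, 0.97 and 0.93, after quantile normalization and after correction for position on the array. With arrays centred on their median 11 pairs passed, the 10 and Cyp8b1 with Hsd3b7. No slide held more than 4 arrays, too few for a correlation within a slide. Hsd3b7 with Slc10a1 fell to r = 0.02 after quantile normalization.

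The other genes of the pathway, from lists of enzymes, transporters, regulators and further FXR targets, gave 0 calls in each comparison between genotypes. Of the 12 other synthesis enzymes, 8 were higher in TAKI than in WT and 9 in TEKI than in WT. The smallest p-values were those of Akr1d1, a steroid reductase of the pathway, at 0.43 ± 0.28 (SE, adjusted p = 0.563) for TAKI minus WT, and of Cyp46a1, a cholesterol hydroxylase best known from brain, at 0.69 ± 0.40 (SE, adjusted p = 0.514) for TEKI minus WT in limma. Of the 12 other transporters tested, 4 were higher in TAKI and 7 in TEKI than in WT, with Abcc3, a basolateral exporter, at -0.11 ± 0.14 (SE, adjusted p = 0.787) for TAKI minus WT and Slc51b, a subunit of the basolateral exporter OST, at -0.79 ± 0.60 (SE, adjusted p = 0.631) for TEKI minus WT. Of the 18 regulators, 4 were higher in TAKI and 8 in TEKI than in WT. Gpbar1, the membrane bile acid receptor TGR5, had the smallest p in both comparisons with WT, at 0.94 ± 0.29 (SE, adjusted p = 0.122) for TAKI minus WT and 1.01 ± 0.33 (SE, adjusted p = 0.391) for TEKI minus WT, from a dim probe above background on 11 arrays. Of the 7 other FXR targets tested, 0 were higher in TAKI and 2 in TEKI, with Sdc1, a heparan sulphate proteoglycan, at -0.22 ± 0.11 (SE, adjusted p = 0.393) and Mafg, a transcriptional repressor, at -0.18 ± 0.16 (SE, adjusted p = 0.691) for TAKI minus WT. Median differences of these lists for TAKI minus WT were 0.03, -0.06, -0.09 and -0.14, where all genes had 0.00. Fgf15, the hormone made by the gut, was above background on 3 arrays only.

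The wide variation of the alternative route was shared by named genes of these lists. Each member was set against each of the 47 other pathway genes, 470 relations in all, a family chosen after the correlations between members were seen. Of these, 52 passed, 45 positive and 7 negative, and they concerned Nr1h4 (15), Cyp7b1 (13), Cyp27a1 (11), Slc10a1 (9), Hsd3b7 (3) and Baat (1), and 0 of them Cyp7a1, Cyp8b1, Nr0b2 or Abcb11. By Spearman's coefficient 70 passed, 50 of them shared. A coefficient of 0.76 or more in size was reached by 31.9% of the 47 genes with Nr1h4, where 10.5% of all genes reached it, by 29.8% with Cyp7b1, against 11.0%, by 23.4% with Cyp27a1, against 8.16%, and by 19.1% with Slc10a1, against 4.29%. With Hsd3b7 the share was 12.8%, against 3.08%, and with Baat 4.26%, against 4.54%. The shares of all genes cover genes of every level, and none was computed for genes of like level. With values regressed on the 75th percentile of the array the count was 0, with slide means removed 12, and after correction for position 28. It was 23 without WT mouse 5, 24 without TEKI mouse 3, 27 without TAKI mouse 4 and 33 without WT mouse 2, and 35 to 77 without any 1 of the others. The genes named next were chosen after their values were seen.

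Klb, the co-receptor through which FGF15 signals in the liver, was at 2.36, 2.13 and 2.42 in TEKI mice 1 to 3, at 2.56, 1.78, 2.37, 2.02 and 2.15 in TAKI mice 1 to 5, and at 2.34, 1.92, 2.30, 2.21 and 2.46 in WT mice 1 to 5. It was highest in TAKI mouse 1 and WT mouse 5 and lowest in TAKI mouse 2 and WT mouse 2, the same mice as for Cyp7b1. Klb and Cyp7b1 gave r = 0.94 (permutation p = 8e-05, adjusted p = 0.0103) and rho = 0.96 (permutation p = 2e-05, adjusted p = 0.00352), 0.96 without the 2 mice farthest on Cyp7b1 and 0.90 when regressed on the array's percentile. Nr1i3, the nuclear receptor CAR, which governs detoxification of bile acids, gave r = 0.94 (permutation p = 6e-05, adjusted p = 0.0103) and rho = 0.91 (permutation p = 0.0004, adjusted p = 0.0111) with Nr1h4. Slc27a5, which activates bile acids to their coenzyme A esters before BAAT acts, gave r = 0.92 (permutation p = 6e-05, adjusted p = 0.0103) and rho = 0.93 (permutation p = 3e-05, adjusted p = 0.00352) with Nr1h4. These 3 relations passed with each of the 13 mice left out in turn. Without the 2 mice farthest on Nr1h4 the coefficients were 0.89 for Nr1i3 and 0.86 for Slc27a5.

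The genes of the basolateral exporters Slc51b and Abcc4 were negatively related to members, while a further one, Abcc3, had r = 0.35 with Nr1h4 (permutation adjusted p = 0.486). Negative relations were not confined to exporters. Ch25h, from the list of synthesis enzymes, was negatively related to Nr1h4, Cyp7b1 and Cyp27a1. These relations passed in 12, 12 and 5 of the 13 fits that left out 1 mouse. Slc51b was at -2.27, -1.96 and -3.18 in TEKI mice 1 to 3, at -2.71, -0.73, -3.18, -1.31 and -1.75 in TAKI mice 1 to 5, and at -1.22, -1.22, -1.32, -1.38 and -3.23 in WT mice 1 to 5. It was lowest in WT mouse 5, TEKI mouse 3 and TAKI mouse 3 and highest in TAKI mouse 2. Slc51b and Nr1h4 gave r = -0.90 (permutation p = 0.00105, adjusted p = 0.019) and rho = -0.85 (permutation p = 0.00156, adjusted p = 0.025), and -0.83 without the 2 mice farthest on Nr1h4. Slc51b is a known target that FXR induces. Slc51b and Cyp7b1 gave r = -0.90 (permutation adjusted p = 0.0162). That relation passed in 10 of the 13 fits that left out 1 mouse, and Slc51b with Cyp27a1, also past the threshold, in 2. Abcc4, a basolateral exporter of bile acids, gave r = -0.87 (permutation p = 0.00043, adjusted p = 0.0126) and rho = -0.85 (permutation p = 0.00059, adjusted p = 0.0143) with the uptake transporter Slc10a1. Slco1a1, an uptake transporter of organic anions, was at 0.95, 0.64 and 1.60 in TEKI mice 1 to 3, at 2.06, -0.51, 1.28, -0.91 and 1.01 in TAKI mice 1 to 5, and at 0.48, -2.09, 0.58, -0.26 and 2.32 in WT mice 1 to 5. It was lowest in WT mouse 2, the mouse lowest for Slc10a1, and with Slc10a1 it gave r = 0.94 (permutation p = 0.00037, adjusted p = 0.0116) and rho = 0.95 (permutation p = 0.00024, adjusted p = 0.0111). Slc51b with Nr1h4 passed in 9 of the 13 fits that left out 1 mouse, with WT mouse 5, TAKI mouse 2, TAKI mouse 4 and TEKI mouse 3 as the exceptions, and Abcc4 and Slco1a1 with Slc10a1 in all 13.

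**Figure D5:**
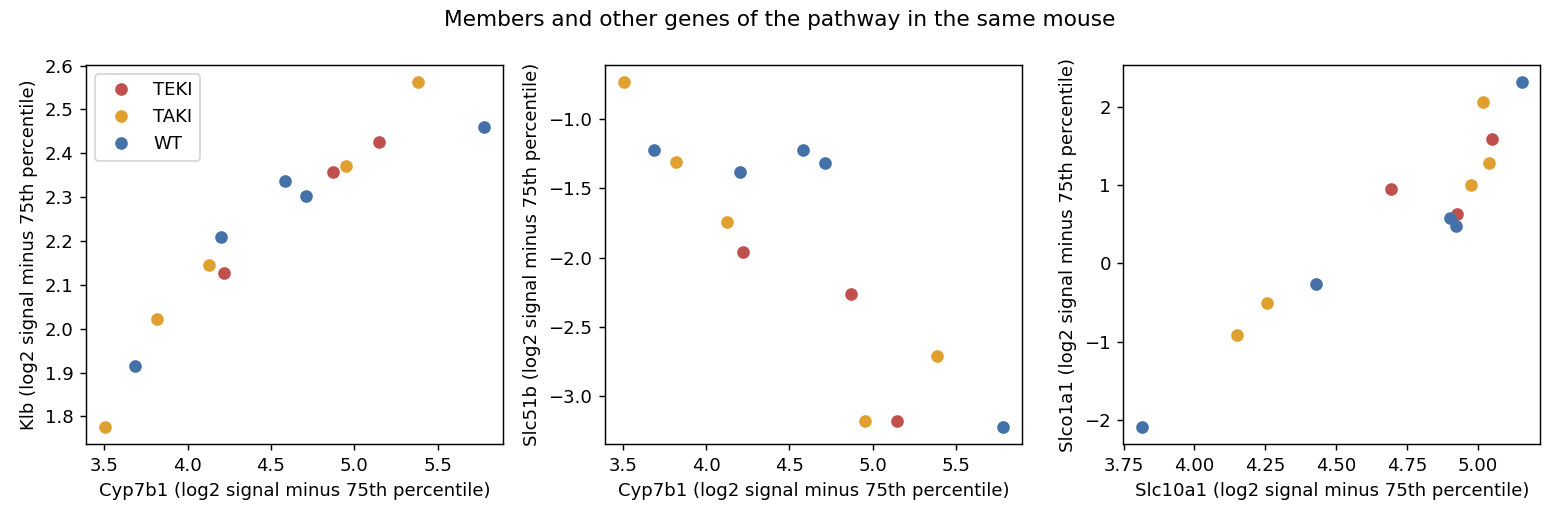
Each point is 1 mouse, coloured by genotype (TEKI, TAKI, WT), with log2 signal minus the 75th percentile of the array on both axes. Klb climbs with Cyp7b1, Slc51b falls with Cyp7b1, and Slco1a1 climbs with Slc10a1, with mice of all genotypes along each line.

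Markers of cell types moved with the same genes. All 11 tested hepatocyte markers were measured in every genotype, with a mean log2 level of 7.66 to 8.12 in TEKI, 7.55 to 7.88 in TAKI and 7.55 to 7.98 in WT. Against the mean of this list Nr1h4 gave r = 0.85 (permutation p = 0.00041, adjusted p = 0.0184) and rho = 0.81 (permutation p = 0.00249, adjusted p = 0.05), which became 0.63 when regressed on the array's percentile. Against the mean of 9 bile duct markers, which was -2.01 to -1.33 in TEKI, -2.35 to -1.03 in TAKI and -2.36 to -1.47 in WT, Nr1h4 gave r = -0.86 (permutation p = 0.00153, adjusted p = 0.0344) and rho = -0.87 (permutation p = 0.00099, adjusted p = 0.05). Against the mean of 10 stellate cell markers, 1.24 to 2.10 in TEKI, 1.03 to 2.17 in TAKI and 1.37 to 2.09 in WT, Cyp7b1 gave r = -0.79 (permutation p = 0.0025, adjusted p = 0.0379) and rho = -0.73 (permutation p = 0.00975, adjusted p = 0.0925), and r = -0.58 without the 2 mice farthest on Cyp7b1. Of 90 relations between members and lists of 8 cell types and of the circadian clock, 6 passed by Pearson's coefficient and 0 by Spearman's, where 25 had an unadjusted permutation p under 0.05. By Pearson's 0 passed with values regressed on the array's percentile or with slide means removed. The count by Pearson's was 0 without WT mouse 5, TAKI mouse 4 or TAKI mouse 5, and 3 without WT mouse 4, TAKI mouse 1, TAKI mouse 2, TAKI mouse 3 or TEKI mouse 3. The part of cell make-up in the correlations was not tested.

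The 15 clock genes bear on Cyp7a1, whose RNA follows the time of day in mouse liver. In the comparisons between genotypes 0 of them passed, and the smallest p was that of Cry1, a clock repressor, at -0.82 ± 0.27 (SE, adjusted p = 0.172) for TEKI minus TAKI in limma. Cyp7a1 and the mean of the list gave r = 0.18 (permutation p = 0.634, adjusted p = 0.851) and rho = 0.12 (permutation p = 0.732, adjusted p = 0.875). The list joins genes that peak at opposite hours, so their shifts can cancel in the mean. This mean therefore cannot stand for the hour of collection, whose part in the spread of Cyp7a1 was not tested.

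Over the 13 arrays, with genotype means removed, the genes whose pattern was most like that of Cyp7a1 among 20365 were Orc4 (r = 0.91), Dgkd (r = 0.90) and Utp18 (r = 0.90). For Cyp8b1 they were Ganc (r = 0.92), Erbb3 (r = 0.90) and Brap (r = 0.88), and for Nr0b2 they were 4930515G13Rik (r = 0.91), Snrnp40 (r = 0.89) and Plekhn1 (r = 0.88). With so many genes ranked over 13 arrays, coefficients of this size are a description only, and 0 of these 9 genes is in a pathway list.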

How the data were processed

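Liver RNA of 13 mice was measured on Agilent 1-colour arrays. Per the file headers, the authors' deposited intensity values came from Agilent Feature Extraction 9.5, which had subtracted background and evened out each array, with no scaling between arrays. The deposited value table held the same intensities on a linear scale, with a largest difference of 0. Log2 processed intensity minus each array's 75th percentile was computed here, without control spots and outlier spots. A gene was taken on its brightest probe well above background on at least 3 arrays. A limma 3.58.1 (R 4.3.3) model of 3 genotypes over 20408 genes was used, with Benjamini-Hochberg adjustment and a threshold of 0.05, tested on simulated data. The signs compare 1 genotype with another on the log2 scale. Relations between genes used Pearson's and Spearman's coefficients after removal of genotype means, with 100000 permutations within genotype (all 1728 orders within slides where slide means were removed, Python 3.11.15). RefSeq names and promoters (GRCm38.p6) were used. Other scalings, background correction, probe filters, variance models, slide blocks and a replicate block were tried, and each mouse was left out in turn. Same-numbered mice did not deviate together in every pair (correlations -0.23 to 0.32), so the numbers were not taken as pairs. The members and gene lists were chosen with earlier results of these data known. Named were all members, in each pathway list the genes of smallest p, the 3 genes most like Cyp7a1, Cyp8b1 and Nr0b2, and Sirt1. Other genes named, from the pathway, clock and marker lists, were chosen after their values were seen. A few others are not reported here.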

Additional observations from a re-analysis of the deposited data

Results flagged for a closer look

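Dixon's criterion was applied to 24 groups of 5 mice, 1 for each of the 12 member probes in TAKI and in WT. By it 4 values lay far from the others of their group, where chance picks out about 1 in 20 groups. The groups share mice, and some probes share a gene, so these values are not independent. Groups of 3 mice, and so all TEKI groups, were not tested. Abcb11 was at 6.75 in TAKI mouse 1, where the other TAKI mice lay between 6.22 and 6.35. Baat was at 5.72 in the same mouse on its tested probe, where the others lay between 5.32 and 5.42. On the second Baat probe WT mouse 5 was at 3.24, above the 2.78 to 2.91 of the other WT mice. Nr0b2 was at 0.67 in WT mouse 2, below the 1.28 to 1.35 of the other WT mice.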

How the results depend on the processing

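Under every alternative tried, 0 of the 870 member values passed the threshold, and 6 of the 30 member differences kept their sign throughout. The numbered mice, set as a replicate block, left 0 members past the threshold in each comparison, with 599 genes for TEKI minus TAKI, 1 for TEKI minus WT and 344 for TAKI minus WT, and Nr0b2 turned to -0.01 for TEKI minus WT. Across the other settings the count over all genes ran from 165 to 2896 for TEKI minus TAKI, where it was 702, from 0 to 93 (without TEKI mouse 2) for TEKI minus WT, where it was 1, and from 3 to 2314 for TAKI minus WT, where it was 576. For TEKI minus TAKI the called genes split into 503 higher and 199 lower, but into 521 and 503 with median scaling, 494 and 633 after quantile normalization and 2747 and 149 after normexp. For TAKI minus WT they split into 384 and 192, but into 139 and 333 after normexp. Median scaling moved the median of all genes to -0.21, -0.36 and -0.15 for TEKI minus TAKI, TEKI minus WT and TAKI minus WT, and that of the members to -0.14, -0.30 and -0.16. The correlation within slides in the random block was 0.04. The 10 member pairs past the threshold numbered 4 with slide means removed, after quantile normalization, after correction for position and when regressed on the 75th percentile, and 3 to 14 when 1 mouse was left out. The 52 relations with pathway genes numbered 12, 28 and 0 with slide means removed, with position corrected and when regressed, and 23 to 77 with 1 mouse left out. The 6 relations with marker lists numbered 0, 12 and 0 in that order, and 0 to 9. The causes were not tested. On simulated arrays with independent noise, 58% of changes of 1 log2 unit were recovered for TEKI minus TAKI, 46% for TEKI minus WT and 60% for TAKI minus WT. Differences of this size or smaller in the members could therefore be missed. The rates are over genes of every spread. For TEKI minus WT the SE was 0.44 for Cyp7a1 and 0.50 for Cyp7b1, against a median of 0.21 over all genes, so the rates need not hold for such members. Signal over background did not limit the members.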

Other observations

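Among the markers of other cell types, Cd2, a surface protein of T cells, was higher in TAKI than in WT by 1.05 ± 0.14 (SE, adjusted p = 0.00309) in limma, and was not past the threshold for TEKI minus WT, at 0.85 (adjusted p = 0.228). Of the 10 lymphocyte markers, 2 passed for TAKI minus WT, all 10 differences were above 0 in both comparisons with WT, and their median was 0.46 for TEKI minus WT and 0.42 for TAKI minus WT, where all genes had 0.07 and 0.00. The mean log2 level of the list was -2.58 to -1.58 in TEKI, -2.41 to -1.87 in TAKI and -2.80 to -2.68 in WT. The hepatocyte, bile duct, macrophage, endothelial and stellate lists gave 0 calls in each comparison. Of 9 pancreatic acinar markers, Rnase1 and Zg16 were lower and Cpb1 higher in TAKI than in WT, by -2.10, -1.92 and 1.68, and Rnase1 and Zg16 were higher in TEKI than in TAKI by 2.99 and 2.74. Of 5 small intestine markers Sis was higher in TEKI than in TAKI, by 2.22. The acinar and Sis probes were dim, above background on 9 to 11 arrays.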
